A study of Mus musculus with 2 samples.

Results

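The regions described here are those of the deposited table whose start lies in one of 5 intervals of the mm9 mouse genome: chromosome 2 from 175.2 to 178.5 Mb, chromosome 4 from 143.5 to 148 Mb, chromosome 12 from 18 to 25 Mb, chromosome 13 from 59 to 70 Mb and chromosome 17 from 18 to 24.5 Mb. The intervals were chosen as places that hold large clusters of KRAB zinc-finger genes outside chromosome 7. They contain 350 of the 23946 listed regions. No measured value enters the rule, but the intervals were chosen with earlier results of these data known. DNA methylation was measured by methylated DNA immunoprecipitation and sequencing (MeDIP-seq), in which an antibody against 5-methylcytosine pulls down sheared, denatured genomic DNA, so that the count of a region rises with its methylated cytosines and with sequencing depth. The cells were mouse embryonic stem (ES) cells of the MC1 line (129S6/SvEvTac) with a tet-regulated Zscan4c transgene that carries a Flag tag, grown without feeders in medium with serum and leukemia inhibitory factor. With 1.5 µg/ml doxycycline the transgene was repressed (the repressed library), and without the drug it was induced (the induced library).

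KRAB zinc-finger proteins are DNA-binding repressors. Their KRAB domain recruits the corepressor TRIM28, which brings in histone methyltransferase and HP1, and many of them silence transposable elements in ES cells and early embryos. Their genes arose by repeated tandem duplication and stand in clusters of similar copies, many of which carry repressive histone marks themselves. Zscan4 encodes a SCAN-domain zinc-finger protein of the 2-cell embryo that a few ES cells at a time switch on for a short while. The comparison asked whether 5-methylcytosine signal in these gene clusters differed between the libraries in another way than on the rest of the same chromosomes.

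Each condition had 1 library, so no value has a replicate check and no p-value is given. An effect of doxycycline itself and one of the transgene cannot be told apart. The libraries held 51169 induced and 70219 repressed counts over all listed regions. Ratios are of induced over repressed counts after both libraries were scaled to equal totals over the 23932 regions with an adjusted value, so they are relative to that total. A change shared by all regions would not be seen. All 350 regions have an adjusted value. The 95% intervals beside the ratios are exact binomial and cover counting error only, and PCR copies of a molecule may make them too narrow. A region with 0 counts may still have an expected count of up to 3. Reads from near-identical gene copies could have been placed at any of the copies, and the treatment of such reads is not known from the labels or the file.

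No mm9 gene annotation was used here, so no region is assigned to a gene, exon or promoter, and whether the intervals hold the named gene clusters was not checked by position. Gene names and their order alone were taken from the RefSeq table of assembly GRCm38.p6. On chromosome 13 the longest run of genes with a Zfp symbol, allowing up to 10 steps along the protein-coding genes from one to the next, had 24 members among 31 consecutive protein-coding genes, among them Zfp457, Zfp458 and Zfp459. On chromosome 17 it had 23 among 39, with Zfp51, Zfp52, Zfp53 and Zfp54. The run on chromosome 4 was the tightest of these, with 16 among 18, including Zfp600, Zfp980 and Zfp933. Chromosome 2 had a run of 10 among 34, including Zfp931 and Zfp971. On chromosome 12 none of the 6 genes with such a symbol had another within that reach, so the symbols gave no cluster there. A Zfp symbol names a zinc-finger protein and does not show that it has a KRAB domain.

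The intervals differed widely in how many regions were listed and in how much signal these held. The chromosome 4 interval had 82 regions, or 18.2 per Mb, against 10.2 per Mb on the rest of the chromosome. The chromosome 13 interval had 158 regions (14.4 per Mb, against 9.00), and the chromosome 17 interval had 73 (11.2 per Mb, against 12.4). The chromosome 2 and 12 intervals were sparse, with 12 regions (3.64 per Mb, against 9.99) and 25 regions (3.57 per Mb, against 7.77). Listed regions covered only part of some intervals. Cut at whole Mb, the intervals made 34 steps, of which 7 held no listed region: 2 of 4 on chromosome 2, 3 of 7 on chromosome 12 and 2 of 7 on chromosome 17. On chromosome 12 the last region ended at 21549777, and on chromosome 2 the first began at 176857831. What the table does not list there was not analysed here.

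The signal per length stood apart on chromosome 4. Its interval held 1176 counts of both libraries over 105 kb of listed sequence, 11.2 counts per kb, against 3.99 on the rest of the chromosome and 3.64 over all scaled regions. The median region there had 8.5 counts, against 4 on the rest of the chromosome, and 18 of 82 regions (22.0%) had 20 or more counts, against 3.45%. The median region length was 1024.5 bp inside the interval and 1151 bp outside it, and the part of length in the counts was not tested. On chromosome 13 the value was 4.44 counts per kb, against 3.18, and on chromosome 12 it was 4.41, against 3.68. On chromosome 2 (2.72 against 3.57) and chromosome 17 (2.92 against 4.33) it was lower inside the interval. Chromosome 4 supplied 46.0% of the counts of all 350 regions and chromosome 13 supplied 35.8%. Values pooled over the intervals therefore mostly describe these 2.

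**Figure D1:**
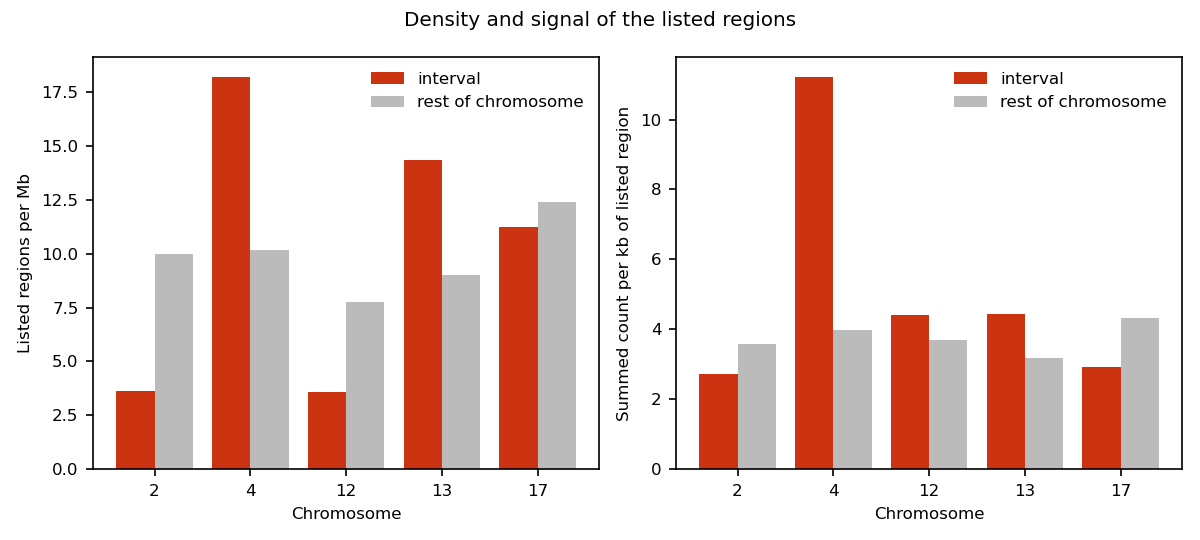
Listed regions per Mb (left) and summed count of both libraries per kb of listed region (right), in each interval (red) and on the rest of its chromosome (grey). The chromosome 4 interval reaches 18.2 regions per Mb and 11.2 counts per kb, against 10.2 and 3.99 on the rest of that chromosome.

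Summed over the 5 intervals, the 5-methylcytosine signal was lower in the induced library. The 350 regions held 1011 induced and 1547 repressed counts, a scaled ratio of 0.900 (95% interval 0.831 to 0.975). The rest of the same chromosomes, with 13077 and 17631 counts in 6138 regions, had 1.02 (0.998 to 1.04). The odds of an induced count inside the intervals were 0.881 times those on the rest (exact 95% interval 0.811 to 0.958), a value that no scaling of the libraries can change. With the interval widened by the spread of 1 Mb steps on the rest of these chromosomes, which was 1.21 times the binomial variance, the bounds were 0.805 and 0.965. The steps inside the intervals spread more, at 2.17 times the binomial variance, and with that spread the bounds were 0.780 and 0.995. The spread between cultures is not known. Without chromosome 4, which holds 46.0% of the counts, the value was 0.927 (0.828 to 1.04), still below 1 but with fewer counts and an interval that included 1.

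The chromosome 4 interval alone differed from the rest of its own chromosome beyond counting error. It held 452 induced and 724 repressed counts, giving a ratio of 0.860 (0.763 to 0.968), while the other 1506 regions of chromosome 4 had 3499 and 4560 counts, for a ratio of 1.06 (1.01 to 1.10). Inside over outside, this was 0.814 (0.716 to 0.924). At a level of 99%, which allows for the 5 intervals compared but not for their choice, the bounds were 0.688 and 0.961. Set against the autosomes outside all 5 intervals, the value was 0.858 (0.760 to 0.966), since the rest of chromosome 4 lay above them. Each of the 5 steps of 1 Mb could be left out, with values from 0.802 to 0.828, all with an upper bound below 1.

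In the other 4 intervals, scaled by library totals, the counting interval included 1. The chromosome 13 interval held 375 and 542 counts, giving a ratio of 0.953 (0.833 to 1.09), and 0.946 (0.815 to 1.10) relative to the rest of the chromosome. The chromosome 17 interval held 111 and 170 counts, giving a ratio of 0.899 (0.701 to 1.15), and 0.868 (0.673 to 1.11) relative to the rest. On chromosome 2 there were 15 and 32 counts, giving a ratio of 0.646 (0.325 to 1.23), and 0.633 (0.318 to 1.21) relative to the rest. On chromosome 12 there were 58 and 79 counts, giving a ratio of 1.01 (0.708 to 1.44), and 1.06 (0.739 to 1.52) relative to the rest. These depths cannot show a difference of the size seen on chromosome 4 in the chromosome 2, 12 and 17 intervals. None of the 10 pairs of intervals differed from each other beyond counting error. Chromosome 4 over chromosome 13, the best covered pair, gave 0.902 (0.753 to 1.08). A lower signal is therefore not shown to belong to chromosome 4 more than to the other intervals.

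**Figure D2:**
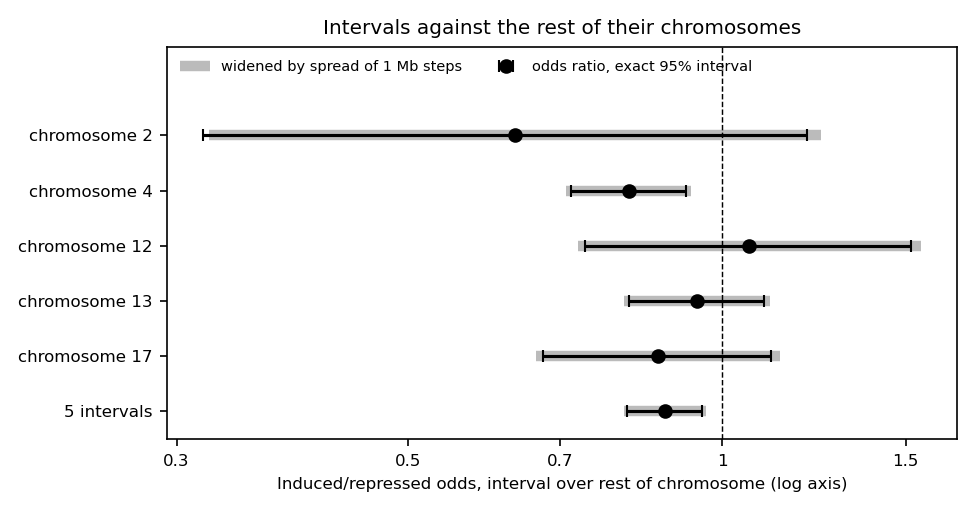
Odds of an induced against a repressed count inside each interval, divided by those on the rest of its chromosome, on a log axis. Black points carry exact 95% intervals, and grey bars show the interval widened by the spread among 1 Mb steps. Chromosome 4 (0.814) and the 5 intervals pooled (0.881) lie below 1 with both kinds of interval.

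On chromosome 4 the lower signal was spread over neighbouring steps, while the regions with the most counts lay on both sides of 1. The step from 144 to 145 Mb held 20 induced and 30 repressed counts, giving a ratio of 0.918 (0.494 to 1.67). The step from 145 to 146 Mb held 116 and 178, or a ratio of 0.897 (0.704 to 1.14). The step from 146 to 147 Mb held 224 and 354, or a ratio of 0.871 (0.734 to 1.03), and no 1 Mb step on the rest of the 5 chromosomes had as many counts. From 147 to 148 Mb there were 88 and 151 counts, giving a ratio of 0.803 (0.610 to 1.05). All 4 ratios lay below 1 within a narrow range, and none of them differed from 1 beyond counting error by itself. The first, shorter step, from 143.5 to 144 Mb, held 4 and 11 counts, too few to place it.

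Among single regions on the rest of chromosome 4, 672 of 1506 were lower in the induced library and 702 higher. Inside the interval 51 of 82 were lower and 27 higher, and 4 had no count. The best covered was R16053 (chr4:145713166-145715092), with 38 induced and 60 repressed counts, for a ratio of 0.872 (0.565 to 1.33). Next came R16055 (chr4:146034084-146035711), with 36 and 44 counts, for a ratio of 1.13 (0.705 to 1.79). R16066 (chr4:146649033-146650398) held 24 and 39 counts, giving a ratio of 0.847 (0.487 to 1.45). After these in count came R16077 (chr4:146891442-146893439) with 24 and 28, R16049 (chr4:145230376-145231376) with 23 and 27, and R16086 (chr4:147182548-147184508) with 20 and 17. Their ratios were 1.18, 1.17 and 1.62. So even the richest regions lay on both sides of 1, each with a counting interval that included 1. The 18 regions with 20 or more counts, between 145022011 and 147293791, had ratios from 0.459 to 1.62 with a median of 0.860, and 13 were lower and 5 higher. Summed, they held 282 and 423 counts, giving a ratio of 0.918 (0.787 to 1.07). The 52 regions of the same count class on the rest of chromosome 4 had a ratio of 1.23 (1.11 to 1.37), with 17 lower and 35 higher. The inside value was 0.744 times the outside one (0.618 to 0.896). Regions under 20 counts gave 0.763 (0.624 to 0.930), so the difference was present at both depths. The regions of the interval scattered around their common share with 0.899 times the binomial variance, no more than counting error gives.

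In the chromosome 13 interval, 2 steps departed from 1 in opposite directions. From 59 to 60 Mb there were 68 induced and 43 repressed counts in 17 regions, a ratio of 2.18 (1.47 to 3.27). From 62 to 63 Mb there were 41 and 106 counts in 20 regions, a ratio of 0.533 (0.362 to 0.771). Of the 344 steps with at least 20 counts on the rest of the 5 chromosomes, 3 were as high as the first and 12 as low as the second, but these held at most 24 and 68 counts. None of the 90 outside steps with at least 111 counts was as high as the first, and none of the 51 with at least 147 counts was as low as the second. Both steps were singled out by their ratios, so an extreme place among the outside steps comes in part with that choice. The other steps with at least 20 counts, between 63 and 70 Mb, had ratios from 0.787 to 1.61 with intervals that included 1. The best covered of them, from 66 to 67 Mb, held 91 and 145 counts, giving a ratio of 0.864 (0.658 to 1.13). The 8 steps varied 4.61 times as much as binomial counts would, against 1.01 times for the 64 steps on the rest of chromosome 13. The value for the whole interval hangs on these steps. It was 0.841 (0.717 to 0.985) without the first and 1.05 (0.893 to 1.23) without the second.

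In the higher step, 1 region held 30 of the 68 induced counts. R05912 (chr13:59578764-59580015), the best covered of the chromosome 13 interval, held 30 induced and 6 repressed counts, giving a ratio of 6.89 (2.82 to 20.2). Without it the step held 38 and 37 counts, giving a ratio of 1.41 (0.875 to 2.29), and its interval included 1. Of the 16 remaining regions, 11 were higher and 5 lower, against 403 higher and 421 lower of 956 on the rest of chromosome 13. Whether the step differed from 1 beyond counting error thus depended on 1 region, and its neighbours leaned the same way. That region was left out after its values were seen, and fewer counts also widen the interval.

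The lower step had no such leading region. Induction went with a lower signal in 17 of its 20 regions and a higher one in 2. The remaining 1 had no count, and no region held more than 14 counts. On the rest of chromosome 13, 421 of 956 regions were lower and 403 higher. The step was named as the lowest of its interval, so a majority of lower regions comes in part with that choice. Singled out after their values were seen, R05931 (chr13:62200392-62201392) and R05944 (chr13:62724745-62725745) each held 3 induced and 11 repressed counts, and R05939 (chr13:62483752-62485251) held 3 and 8. No region of the step had more than 3 induced counts, while the repressed counts went up to 11. These regions run from 62117002 to 62918245.

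**Figure D3:**
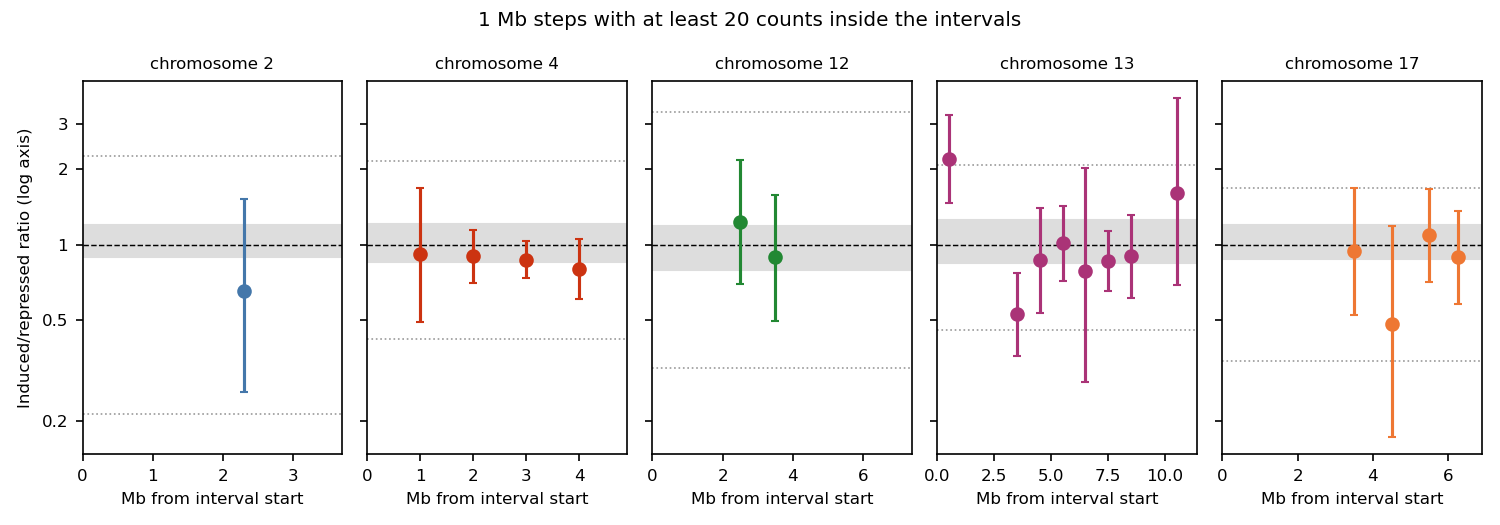
Induced-to-repressed ratio (log axis) of each 1 Mb step with at least 20 counts, by distance from the start of its interval, with exact 95% intervals. Grey bands hold the middle 50% of the steps on the rest of the same chromosome and dotted lines mark their lowest and highest. The chromosome 4 steps lie close together between 0.803 and 0.918, and the chromosome 13 steps run from 0.533 to 2.18.

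Across all 5 intervals, 19 steps held at least 20 counts. Their ratios ran from 0.482 to 2.18 with a median of 0.895, and 14 (73.7%) were below 1. The 344 steps on the rest had a median of 1.03 and 45.9% below 1. Inside the intervals 1 step lay below 1 beyond counting error and 1 above. On the rest of the 5 chromosomes 3.49% of steps were called lower and 2.62% higher in this way, so 1 of 19 in either direction is close to the background.

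On chromosome 17 the step from 22 to 23 Mb stood lowest, with 7 induced and 20 repressed counts in 17 regions and a ratio of 0.482 (0.172 to 1.19). Its interval is wide, and 11 of the 344 outside steps were as low. The step from 23 to 24 Mb was the highest there, with 42 and 53 counts, for a ratio of 1.09 (0.710 to 1.67). Regions without any induced count were common on chromosome 17, at 30 of 73 (41.1%), against 25.4% on the rest of the chromosome, while 12 (16.4%) had no repressed count, against 18.4%. The regions here were shallow, with a median of 3 counts against 4 on the rest, and the part of depth in these shares was not tested. The best covered, R09343 (chr17:24301565-24302814), held 8 and 9 counts, R09332 (chr17:23965439-23966445) held 9 and 6, and R09314 (chr17:23012396-23013396) held 6 and 8. These 3 were level or higher in the induced library, against the direction of the summed interval. With regions of at least 5 counts alone, the value relative to the rest turned to 1.20 (0.874 to 1.65), so no direction can be given for this interval.

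The chromosome 12 and chromosome 2 intervals rest on a few regions. On chromosome 12, R04573 (chr12:20232466-20233466) held 17 induced and 20 repressed counts, giving a ratio of 1.17 (0.576 to 2.35), and R04582 (chr12:21295071-21296111) held 10 and 15, a ratio of 0.918 (0.369 to 2.18). The third, R04566 (chr12:18234792-18236669), held 2 and 7. Together these carried 51.8% of the interval's counts. The step from 20 to 21 Mb had a ratio of 1.23 (0.699 to 2.17) and that from 21 to 22 Mb had 0.891 (0.496 to 1.57), and both intervals included 1. On chromosome 2, R13416 (chr2:176864140-176865883) held 1 and 7 counts, R13420 (chr2:177061721-177062721) held 3 and 5, and R13415 (chr2:176858620-176859620), which overlaps the region before it, held 3 and 4. The 1 step there with at least 20 counts, from 177 to 178 Mb, held 9 and 19 counts, giving a ratio of 0.652 (0.260 to 1.51). Of the 12 regions 7 were lower, 3 higher and 2 without a count, against 776 lower and 804 higher of 1751 on the rest of chromosome 2.

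Region by region, a smaller share rose 2-fold or more than in the table as a whole. A region was counted as changed when its scaled counts, with 1 added to each, differed 2-fold or more. Of the 350 regions 64 (18.3%) were lower by this rule and 31 (8.86%) were higher, against 15.6% and 15.7% of all 23932 scaled regions. The rule treats sparse regions unevenly, because 1 induced count alone passes it and 1 repressed count alone does not. Among regions with at least 10 counts, where this plays no part, 9 of 73 (12.3%) were lower and 1 (1.37%) was higher, against 9.34% and 8.47% of the 2965 such regions in the table. The share lower was close to the background, and the share higher was below it. However, 26 of the 73 had 20 or more counts, against 617 of the 2965. Deeper regions pass 2-fold less often by counting error alone, and the part of depth in these shares was not tested. The median log2 ratio of these 73 was −0.23, against −0.02 in the table. On chromosome 4 the counts were 4 lower and 0 higher of 38, on chromosome 13 they were 5 and 1 of 28, and on chromosome 12 (2 regions) and chromosome 17 (5 regions) none passed in either direction.

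The strongest single decreases lay on chromosomes 4 and 13. R16108 (chr4:147973958-147975499), the last region of its interval, held 1 induced and 11 repressed counts, giving a ratio of 0.125 (0.00291 to 0.861). R05994 (chr13:64532680-64534679) held 1 and 10, a ratio of 0.138 (0.00317 to 0.968). R06002 (chr13:66091493-66092493) and R16038 (chr4:144789844-144790844) each held 2 and 9, R05964 (chr13:63826357-63827861) held 2 and 8, and R05931 has been given above. These come from different steps, and only the first 2 had intervals that excluded 1. The other increases named, among regions with at least 10 counts, had intervals that included 1. R06010 (chr13:66567196-66568196) held 8 induced and 5 repressed counts, giving a ratio of 2.20 (0.636 to 8.56), R05973 (chr13:64044621-64046509) held 13 and 9, and R09332 has been given above. R05919 (chr13:59827516-59828516) and R09336 (chr17:24158969-24160867) each held 6 and 4. Since size decided which of these are named, the intervals only describe them. Over the 321 regions with a count, the interval left out 1 in 2 lower and 2 higher regions, against 0.544% and 0.774% of the regions with a count in the whole table, which is near the background. The fourth of them, R04578 (chr12:21116804-21117804), held 5 induced and 0 repressed counts, and was chosen after its values were seen.

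**Figure D4:**
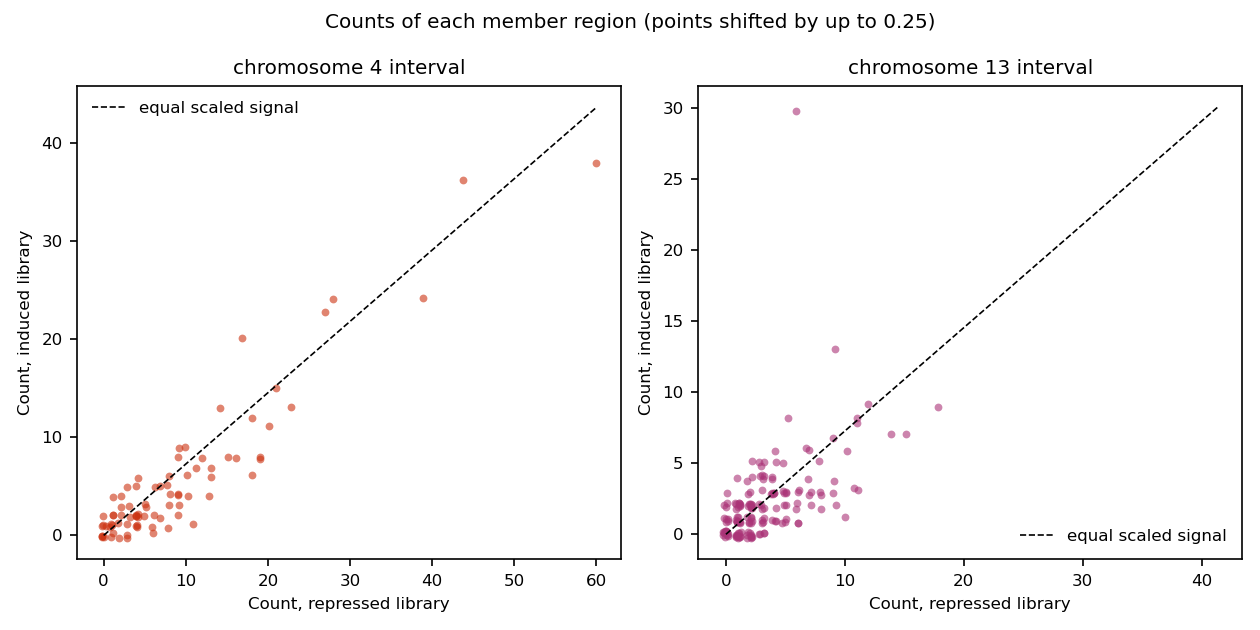
Counts of each region in the repressed (horizontal) and induced (vertical) library for the chromosome 4 and chromosome 13 intervals, each point shifted by up to 0.25 so that equal counts can be seen. The dashed line marks equal scaled signal. On chromosome 4 more points lie under the line than above it, and those with the most counts lie on both sides. On chromosome 13 R05912 (30 and 6 counts) stands far above the line.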

How the data were processed

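MeDIP-seq counts of 1 library per group were analysed. The build is mm9, per the submitters' processing notes. How reads were aligned, counted and cleared of duplicates, and how regions were picked, is not given in the sources used here. The deposited counts are raw whole numbers per region. The adjusted signal that the authors deposited beside them equals the count times 1.19 (induced) or 0.863 (repressed), within 0.049 for the 350 regions, and is not given for 14 regions, none of them in the intervals. Positions are printed as the file gives them. A start may be off by 1 bp.

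Regions were assigned by their start. Ratios carry exact Clopper-Pearson 95% intervals, and odds ratios carry exact conditional intervals. With 0 residual degrees of freedom, edgeR's test could not be fitted. Named were the 3 regions with most counts per interval, the 6 largest increases and decreases in log2 ratio (pseudocount 1) among regions with at least 10 counts, and the highest and lowest step of at least 20 counts. Intervals, lists and count classes were chosen with earlier results of these data known. The odds ratio was tested on simulated counts with binomial spread only. The 1 Mb steps here spread more, so that test does not show how well its intervals hold for these data. Tools were Python 3.11.15, scipy 1.17.1, R 4.3.3, edgeR 4.0.16 and DESeq2 1.42.0.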

Additional observations from a re-analysis of the deposited data

How the results depend on the processing

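Of 144 recomputed values 118 stayed within the main counting interval, or within 1.5 times the main number. Part of this tally was fixed in advance and does not measure how firm the results are. Widened intervals keep the main value, and scaling cannot change the number of steps. Including the regions without an adjusted value left every value as it was. No value that differed from 1 beyond counting error changed direction, but under the other scalings a ratio below 1 could only fall further. The ratios themselves hang on the scaling, which divides by 0.726 with library totals, 0.800 with TMM (0.763 with the 14 regions without an adjusted value), 0.875 with DESeq2's median of ratios and 1 without scaling. The summed ratio was 0.817 with TMM, 0.747 with the median of ratios and 0.654 without scaling. With the median of ratios it was 0.714 on chromosome 4 and 0.791 on chromosome 13. Without scaling it was 0.624 on chromosome 4, 0.692 on chromosome 13 and 0.653 on chromosome 17. The interval then left out 1 also on chromosome 13 (TMM 0.865, 0.756 to 0.989, the median of ratios and no scaling), on chromosome 17 (median of ratios 0.746, 0.582 to 0.953, and no scaling) and on chromosome 2 (no scaling, 0.469, 0.236 to 0.891), as such scaling lowers every ratio alike. Steps below 1 beyond counting error then numbered 3 of 19 (TMM), 6 (median of ratios) and 8 (no scaling), and 2 with steps shifted by 0.5 Mb, against 1. The shares of outside steps so called were 6.40%, 9.30%, 23.3% and 2.86%. Without R05912 0 steps lay above 1 beyond counting error. Values relative to the rest of a chromosome do not depend on scaling. Of these, chromosome 13 moved to 1.22 in regions with 20 or more counts and chromosome 17 to 1.20 in regions with at least 5. The pooled value kept its direction throughout (0.847 to 0.927), with an interval that included 1 without chromosome 4 and at 20 or more counts (0.896, 0.775 to 1.03). The 2-fold numbers of 64 lower and 31 higher regions became 108 and 60 with a pseudocount of 0.1 (30.9% and 17.1%, against 28.8% and 22.4% of all regions). With a pseudocount of 10 they were 0 and 1 (0% and 0.286%, against 0.0251% of all regions in each direction). With at least 5 counts they were 31 and 12 (18.3% and 7.10%, against 17.5% and 11.8%). They were 125 and 70 at 1.5-fold (35.7% and 20%, against 31.4% and 24.9%) and 17 and 15 at 3-fold (4.86% and 4.29%, against 5.63% and 5.48%). Without scaling 126 were lower (36.0%, against 31.5%). Leaving out R05912 or single steps, the count classes and the widened intervals were chosen after seeing the data. No paired analysis was possible because each group has 1 library. The median region had 4 counts, at which no difference can exceed counting error. Even 0 induced and 4 repressed counts, as in R09277, leave an upper bound of 2.09.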
